A study of Homo sapiens with 8 samples.

Results

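Toll-like receptors and adaptors were examined as a set of 10 genes, of 13842 genes in the deposited RNA-seq table. Its members were picked by gene symbol, with earlier results of these data known, and are 6 receptors (*TLR1*, *TLR2*, *TLR3*, *TLR4*, *TLR5* and *TLR6*), 2 adaptors (*MYD88* and *TICAM1*), the kinase *IRAK1* and the ubiquitin ligase *TRAF6*. All 10 had a row in the table. The 8 libraries came from MCF10A, a normal human breast epithelial cell line, and DCIS.COM, a line of the MCF10A series that models ductal carcinoma in situ. Both lines had been transduced with a lentiviral pLOC vector and selected with blasticidin, the control cells included. The vector was either empty (pLOC-empty) or carried the long noncoding RNA *MALINC1* (pLOC-*MALINC1*), which gave 4 groups of 2 libraries. The growth media also differed. MCF10A cells received EGF, hydrocortisone, insulin and cholera toxin beside horse serum, and DCIS.COM cells received horse serum alone, so that the effects of line and medium cannot be told apart. The labels do not say that paired libraries came from separate cultures, and the p-values therefore measure only the spread between libraries.

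Toll-like receptors recognize conserved microbial molecules and molecules released by damaged cells. TLR4 is known for the response to lipopolysaccharide, TLR5 for flagellin, TLR3 for double-stranded RNA, and TLR2 for lipopeptides, which it binds as a pair with TLR1 or TLR6. All but TLR3 pass the signal to the adaptor MYD88, which assembles IRAK kinases and TRAF6 on the way to NF-kB and AP-1. TLR3, and TLR4 once inside the cell, use the adaptor TICAM1 (TRIF), which leads to IRF3 and interferon as well as to NF-kB.

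The transduced RNA followed the labels in every library. *MALINC1* was at 1.0 and 1.51 CPM in MCF10A pLOC-empty, at 13.2 and 11.7 in MCF10A pLOC-*MALINC1*, at 1.35 and 1.15 in DCIS.COM pLOC-empty and at 24.5 and 19.2 in DCIS.COM pLOC-*MALINC1*. CPM, the usual unit of reads scaled to a common library size, were computed here from whole reads that were recovered from the deposited log2 CPM. Libraries held 20604377 to 37550457 reads on the listed genes, with a median of 29210325.5, and 1 read was worth 0.0279 to 0.0477 CPM. The signal recognition particle RNAs *RN7SL1* and *RN7SL2* took 8.22% to 15.7% of the reads. Replicates of DCIS.COM pLOC-*MALINC1* differed most, with a chi-square of 20.4 per degree of freedom against 3.27 to 6.27 in the other groups. All 10 epithelial markers that were looked up had a row. Their summed level, most of it from keratins, was 28959 to 29008 CPM in MCF10A pLOC-empty, 37566 to 38854 CPM in MCF10A pLOC-*MALINC1*, 7734 to 7832 CPM in DCIS.COM pLOC-empty and 8131 to 8235 CPM in DCIS.COM pLOC-*MALINC1*. With pLOC-*MALINC1*, 8 of the 10 rose and 0 fell in MCF10A, against 21.5% and 18.1% of all genes. In DCIS.COM 3 rose and 2 fell, against 16.4% and 16.7%. Between the lines with the empty vector 5 were higher in DCIS.COM and 5 lower, against 37.9% and 36%. The part of these shifts in the results below was not tested.

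With pLOC-*MALINC1*, 3 members changed in MCF10A, where 21.5% of all genes rose and 18.1% fell, and 4 in DCIS.COM, where 16.4% rose and 16.7% fell. In MCF10A, *TLR4* rose 2.55-fold, and *TICAM1* (1.45-fold) and *IRAK1* (1.16-fold) rose less. In DCIS.COM, *TLR1* fell 1.93-fold, *TLR5* fell 1.44-fold, and *IRAK1* (1.15-fold) and *MYD88* (1.23-fold) rose. Between the lines the differences were larger: DCIS.COM had more *TLR4*, *TLR5* and *TLR3*, less *MYD88*, *TRAF6* and *TICAM1*, and no read of *TLR2* in any library. Changes were called at an adjusted p below 0.01 (limma, Benjamini-Hochberg adjustment over all 13842 genes), and a gene that also passed 2-fold is called a DEG. In RNA from bulk cultures, fewer cells with a transcript and less of it per cell cannot be told apart.

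**Figure D1:**
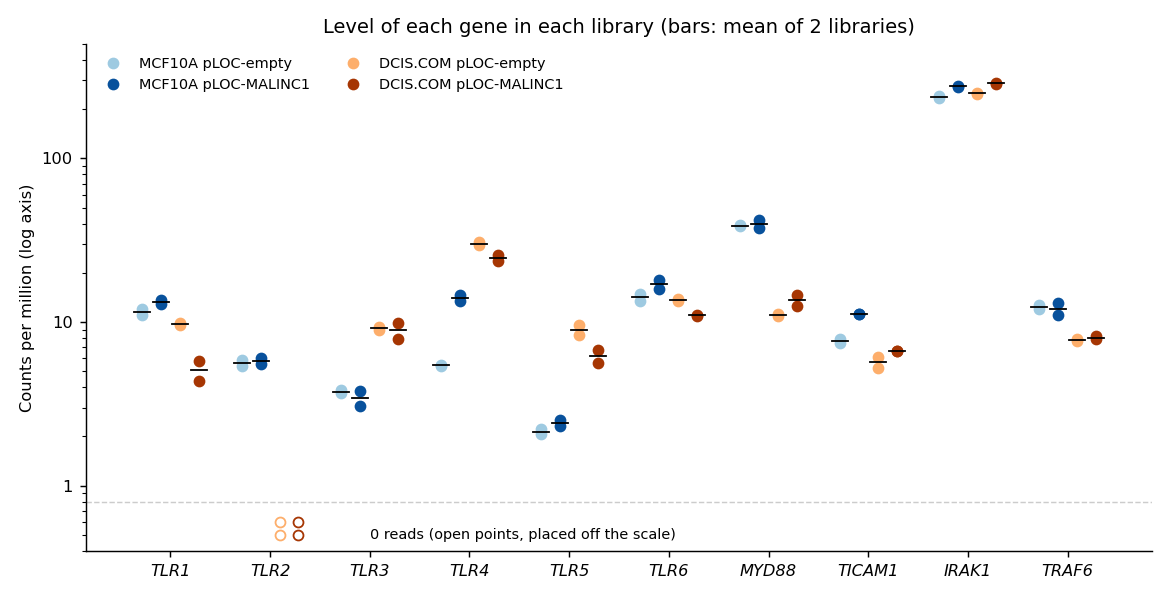
Level of the 10 genes in each of the 8 libraries, in CPM on a log axis, with 1 point per library and a bar at the mean of the 2 libraries of a group. *TLR4* is lowest in MCF10A pLOC-empty (5.40 and 5.48 CPM) and highest in DCIS.COM pLOC-empty (29.4 and 30.7 CPM), and the open points mark the 4 DCIS.COM libraries in which *TLR2* had 0 reads.

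*TLR4*, the lipopolysaccharide receptor, showed the widest range among the receptors that were read in both lines. Its level was 5.48 and 5.40 CPM in MCF10A pLOC-empty, 14.6 and 13.4 CPM in MCF10A pLOC-*MALINC1*, 29.4 and 30.7 CPM in DCIS.COM pLOC-empty, and 23.7 and 25.8 CPM in DCIS.COM pLOC-*MALINC1*. No 2 groups overlapped, and both MCF10A groups lay below both DCIS.COM groups. In MCF10A the log2 fold change with pLOC-*MALINC1* was 1.35 (standard error 0.078, adjusted p = 3.97e-08), which made *TLR4* the only DEG of the 10 in that line. In DCIS.COM the estimate was -0.28 (standard error 0.078, adjusted p = 0.0112), just outside the threshold, and it passed with voom (adjusted p = 0.00139) and with the line fitted alone (adjusted p = 0.00191). The 2 changes differed by -1.63 on the log2 scale, DCIS.COM minus MCF10A (standard error 0.11, adjusted p = 1.67e-07). Between the lines *TLR4* was higher in DCIS.COM by a log2 fold change of 2.45 with the empty vector (standard error 0.078, adjusted p = 1.34e-11) and by 0.82 with pLOC-*MALINC1* (standard error 0.078, adjusted p = 6.4e-07). The reads of *TLR4* numbered 122 to 159 per library in MCF10A pLOC-empty and 630 to 644 in DCIS.COM pLOC-empty. An annotated noncoding gene, ENSG00000285082, shares 5.06% of the 76 nt stretches of the *TLR4* transcripts, and how the counting divided such reads is not given in the sources used here.

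*TLR2* was the receptor that set the lines apart most sharply. MCF10A pLOC-empty libraries held 170 and 122 reads (5.86 and 5.40 CPM), MCF10A pLOC-*MALINC1* libraries held 217 and 147 reads (6.05 and 5.55 CPM), and each of the 4 DCIS.COM libraries held 0. Taking 3 reads per library as the limit that a count of 0 allows (0.140 and 0.143 CPM in pLOC-empty, 0.0874 and 0.0887 CPM in pLOC-*MALINC1*), *TLR2* was at least 39.8-fold lower in DCIS.COM with the empty vector and at least 65.9-fold lower with pLOC-*MALINC1*. These limits cover counting error only. Within MCF10A the 2 vector groups overlapped (log2 fold change 0.04, standard error 0.234, 95% confidence interval -0.47 to 0.55, adjusted p = 0.901), and within DCIS.COM no fold can be given. That standard error comes from 1 fit of all 8 libraries, with a trend on the mean level that includes the DCIS.COM libraries at 0 reads. It is therefore not the spread of the MCF10A libraries alone. The partners of TLR2 in ligand binding, *TLR1* and *TLR6*, were read in every DCIS.COM library. Of 12 leukocyte markers only *CD68* and *CSF1R* were in the table, and *PTPRC* and the other 9 were not analysed here. The summed level of those 2 was 34.8 to 35.7 CPM in MCF10A pLOC-empty, 20.4 to 21.6 CPM in MCF10A pLOC-*MALINC1*, 4.10 to 4.30 CPM in DCIS.COM pLOC-empty and 7.27 to 7.34 CPM in DCIS.COM pLOC-*MALINC1*, and its part in the *TLR2* result was not tested. In DCIS.COM with pLOC-*MALINC1* these 2 did not move together, *CD68* having a log2 fold change of 0.96 and *CSF1R* one of -0.88. Of 9 endothelial and fibroblast markers, *PECAM1* and *COL1A1* were in the table and the other 7 were not analysed here. Their summed level was 16.1 to 16.8 CPM in MCF10A pLOC-empty, 7.29 to 8.19 CPM in MCF10A pLOC-*MALINC1*, 8.07 to 9.12 CPM in DCIS.COM pLOC-empty and 1.68 to 1.69 CPM in DCIS.COM pLOC-*MALINC1*, and its part in the changes with pLOC-*MALINC1* was not tested. *PECAM1* fell from 6.64 to 0.132 CPM in DCIS.COM, and *COL1A1* from 15.5 to 6.997 CPM in MCF10A.

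The promoters of these 2 receptors are shown because their levels moved in opposite ways between the lines. Promoters from RefSeq (250 bases before the gene start to 50 after it, GRCh38.p14) were matched for 9 of the 10 genes, and that of *TLR1* was not analysed here. Those of *TLR2* (chr4:153684030-153684329, plus strand) and *TLR4* (chr9:117704153-117704452, plus strand) read, 5′ to 3′:
TLR2: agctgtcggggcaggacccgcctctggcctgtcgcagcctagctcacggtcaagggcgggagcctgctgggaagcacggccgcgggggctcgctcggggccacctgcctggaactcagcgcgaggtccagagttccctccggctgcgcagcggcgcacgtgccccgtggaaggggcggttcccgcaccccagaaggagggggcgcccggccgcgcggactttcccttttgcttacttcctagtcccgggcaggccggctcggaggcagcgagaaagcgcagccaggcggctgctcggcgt
TLR4: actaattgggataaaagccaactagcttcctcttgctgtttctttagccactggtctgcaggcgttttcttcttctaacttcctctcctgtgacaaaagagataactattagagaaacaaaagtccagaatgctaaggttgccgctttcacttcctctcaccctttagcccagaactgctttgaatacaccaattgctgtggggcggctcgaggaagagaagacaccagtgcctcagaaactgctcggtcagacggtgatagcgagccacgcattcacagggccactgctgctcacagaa
The *TLR2* promoter holds 33 CpG dinucleotides and the *TLR4* promoter 8, against a median of 26 over 10704 promoters of genes in the table. Neither holds an AP-1 motif (TGANTCA, which 4.81% of those promoters hold), an NF-kB consensus (6.49%) or an IRF-type motif (GAAANNGAA, 6.47%) on either strand. In GRCh37, the build of the authors' alignment, *TLR2* spans chromosome 4 from 154605222 to 154627412 and *TLR4* chromosome 9 from 120466453 to 120487013, both on the plus strand.

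*TLR5*, the flagellin receptor, had the lowest level per kb of merged exons of the receptors in MCF10A. Its longest annotated transcript (4235 nt) is shorter than the 7733 nt of exons used, and its rank depends on that choice. MCF10A pLOC-empty had 2.21 and 2.08 CPM, MCF10A pLOC-*MALINC1* 2.54 and 2.30 CPM, DCIS.COM pLOC-empty 8.39 and 9.60 CPM, and DCIS.COM pLOC-*MALINC1* 5.65 and 6.80 CPM. All DCIS.COM libraries lay above all MCF10A libraries, and in DCIS.COM both libraries with pLOC-*MALINC1* lay below both with the empty vector. The higher level in DCIS.COM amounted to a log2 fold change of 2.03 with the empty vector (standard error 0.144, adjusted p = 3.29e-08) and of 1.33 with pLOC-*MALINC1* (standard error 0.144, adjusted p = 2.24e-06). *TLR5* fell with pLOC-*MALINC1* in DCIS.COM by 0.53 on the log2 scale (standard error 0.144, adjusted p = 0.00965). That call was lost in 13 of 19 alternatives, which include leaving out any 1 of the 8 libraries, the adjusted p reaching 0.0983 without DCIS.COM pLOC-*MALINC1* replicate 1 and 0.0802 without DCIS.COM pLOC-empty replicate 2. In MCF10A the estimate was 0.17 (standard error 0.144, adjusted p = 0.348), and the difference between the lines, -0.70, did not pass (standard error 0.203, adjusted p = 0.0132).

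*TLR3*, the receptor for double-stranded RNA, differed between the lines and not detectably between the vectors. It was at 3.83 and 3.68 CPM in MCF10A pLOC-empty, 3.82 and 3.06 CPM in MCF10A pLOC-*MALINC1*, 9.001 and 9.36 CPM in DCIS.COM pLOC-empty and 7.92 and 9.87 CPM in DCIS.COM pLOC-*MALINC1*. The lines did not overlap, whereas the vector groups overlapped in both lines. *TLR3* was higher in DCIS.COM by a log2 fold change of 1.27 with the empty vector (standard error 0.142, adjusted p = 2.86e-06) and 1.35 with pLOC-*MALINC1* (standard error 0.142, adjusted p = 1.74e-06). The interval for the change with pLOC-*MALINC1* ran from -0.44 to 0.18 in MCF10A (adjusted p = 0.463) and from -0.36 to 0.26 in DCIS.COM (adjusted p = 0.791). The receptors with the higher level in DCIS.COM lie apart in the genome, *TLR3* on chromosome 4 (GRCh37, 186990065 to 187009227, plus strand), *TLR4* on chromosome 9 and *TLR5* on chromosome 1 (223282746 to 223316590, minus strand).

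*TLR1*, a partner of TLR2, was the member that fell most with pLOC-*MALINC1*. Its level was 11.0 and 11.95 CPM in MCF10A pLOC-empty, 13.7 and 12.9 CPM in MCF10A pLOC-*MALINC1*, 9.65 and 9.88 CPM in DCIS.COM pLOC-empty, and 4.37 and 5.76 CPM in DCIS.COM pLOC-*MALINC1*. Both DCIS.COM pLOC-*MALINC1* libraries lay below every other library. The log2 fold change in DCIS.COM was -0.95 (standard error 0.122, adjusted p = 4.69e-05), short of 2-fold, and it was -0.75 without DCIS.COM pLOC-*MALINC1* replicate 1 and -1.15 without replicate 2 of that group. In MCF10A the groups did not overlap, and the estimate of 0.21 did not pass (standard error 0.122, adjusted p = 0.169). The changes differed between the lines by -1.16 (standard error 0.173, adjusted p = 0.000143). With the empty vector *TLR1* did not differ detectably between the lines (log2 fold change -0.23, 95% confidence interval -0.50 to 0.03, adjusted p = 0.0966), and with pLOC-*MALINC1* it was lower in DCIS.COM (log2 fold change -1.39, standard error 0.122, adjusted p = 2.96e-07).

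*TLR6*, the other partner of TLR2, moved in the directions of *TLR1* with smaller estimates. MCF10A pLOC-empty had 14.9 and 13.5 CPM, MCF10A pLOC-*MALINC1* 18.2 and 15.8 CPM, DCIS.COM pLOC-empty 13.4 and 13.8 CPM, and DCIS.COM pLOC-*MALINC1* 10.8 and 11.1 CPM. Within each line the vector groups did not overlap, the pLOC-*MALINC1* libraries being the higher ones in MCF10A and the lower ones in DCIS.COM. Neither change passed: the log2 fold change was 0.26 in MCF10A (standard error 0.0886, adjusted p = 0.0274) and -0.31 in DCIS.COM (standard error 0.0886, adjusted p = 0.0129). The fall in DCIS.COM passed with the line fitted alone (adjusted p = 0.00751) and with 1 CPM added before the logarithm (adjusted p = 0.00927). The difference of the changes, -0.57, passed as fitted (standard error 0.125, adjusted p = 0.00254), and this call was lost without the trend and in 4 fits with 1 library left out (MCF10A pLOC-empty replicate 2, MCF10A pLOC-*MALINC1* replicate 1, DCIS.COM pLOC-empty replicate 2 or DCIS.COM pLOC-*MALINC1* replicate 1), with adjusted p values of 0.0119 to 0.0150. Between the lines *TLR6* gave -0.06 with the empty vector (standard error 0.0886, adjusted p = 0.553), an estimate that turned to 0.05 when libraries were scaled without *RN7SL1* and *RN7SL2*, and -0.63 with pLOC-*MALINC1* (standard error 0.0886, adjusted p = 2.82e-05).

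*TLR1* and *TLR6* lie on the minus strand of chromosome 4 (GRCh37, 38792298 to 38858438 and 38824518 to 38858438), where the annotated span of *TLR6* falls wholly within that of *TLR1*. Their coding sequences also contain identical stretches. The MANE transcripts share 10 runs of 30 nt or more, 688 bases in all and each inside both coding sequences, and 2 of these runs are as long as a 76 nt read. The longest, of 218 bases, lies at chr4:38798857-38799074 in *TLR1* and chr4:38829484-38829701 in *TLR6*, and is shown in transcript orientation because a read within it does not by itself tell the genes apart, unless its mate lies outside:
TLR1 and TLR6: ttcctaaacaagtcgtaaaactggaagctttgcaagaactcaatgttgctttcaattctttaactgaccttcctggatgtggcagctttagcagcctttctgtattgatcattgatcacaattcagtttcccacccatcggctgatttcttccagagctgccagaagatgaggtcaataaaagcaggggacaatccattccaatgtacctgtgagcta
Over all annotated transcripts, 147 stretches of 76 nt are common to both genes, 3.09% of those of *TLR1* and 2.15% of those of *TLR6*. The values of each may thus hold some reads of the other, and how the counting treated them is not given in the sources used here.

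Other genes of this stretch of chromosome 4 also had lower levels with pLOC-*MALINC1* in DCIS.COM. The nearest genes in the table on either side were looked up after the members' values were known. *KLF3*, which encodes a zinc finger repressor and lies 89.2 kb before *TLR1*, fell in DCIS.COM from 55.8 CPM with the empty vector to 43.2 (log2 fold change -0.36, adjusted p = 0.000252). *TMEM156*, 110 kb beyond *TLR6*, fell from 2.55 to 0.176 CPM (-3.40 on the log2 scale, adjusted p = 3.21e-07), and *KLHL5*, 188 kb beyond it, fell from 77.6 to 32.0 CPM (-1.28 on the log2 scale, adjusted p = 4.18e-09). *FAM114A1*, only 10.9 kb beyond *TLR6*, did not pass (log2 fold change -0.06, adjusted p = 0.557), and neither did *TBC1D1* (log2 fold change -0.02, adjusted p = 0.678) or *PGM2* (log2 fold change -0.04, adjusted p = 0.405) further out. Genes that fell lay on both sides of the receptor pair, beside others that did not pass, and 16.7% of all genes fell in this comparison.

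**Figure D2:**
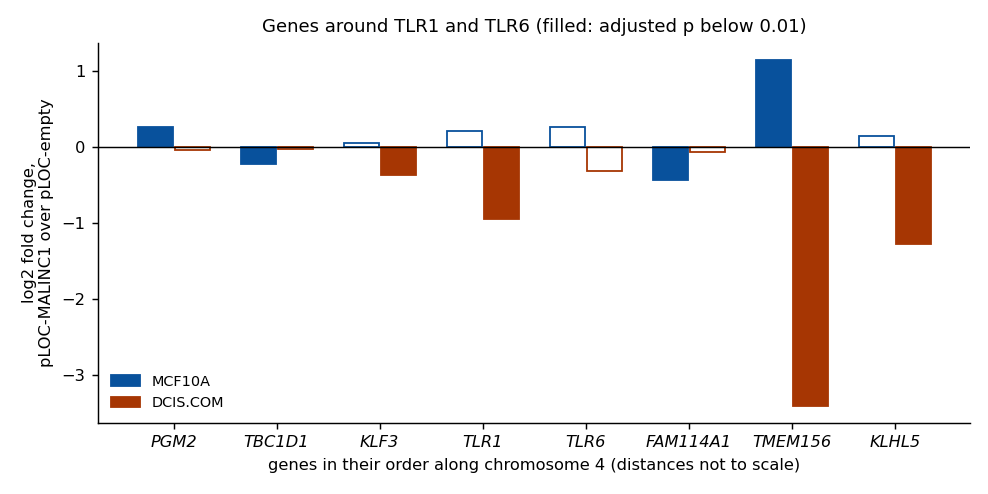
Log2 fold change with pLOC-*MALINC1* of 8 genes in their order along chromosome 4, in MCF10A and DCIS.COM, with bars filled where the adjusted p was below 0.01. In DCIS.COM *KLF3*, *TLR1*, *TMEM156* and *KLHL5* fell, while *PGM2*, *TBC1D1*, *TLR6* and *FAM114A1* did not pass the threshold.

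*MYD88*, the adaptor shared by most of the receptors, was lower in DCIS.COM than in MCF10A with either vector. It was at 39.0 and 38.6 CPM in MCF10A pLOC-empty, 41.9 and 37.6 CPM in MCF10A pLOC-*MALINC1*, 11.2 and 10.8 CPM in DCIS.COM pLOC-empty, and 14.7 and 12.6 CPM in DCIS.COM pLOC-*MALINC1*. The lines were well apart, and the vector groups overlapped in MCF10A but not in DCIS.COM. *MYD88* was 3.51-fold lower in DCIS.COM with the empty vector (log2 fold change -1.81, standard error 0.08, adjusted p = 3.1e-10) and 2.91-fold lower with pLOC-*MALINC1* (log2 fold change -1.54, standard error 0.08, adjusted p = 1.78e-09). The rise with pLOC-*MALINC1* in DCIS.COM was small (log2 fold change 0.30, standard error 0.08, adjusted p = 0.00809), and its call was lost in 10 of 19 alternatives, which include leaving out any 1 library but DCIS.COM pLOC-*MALINC1* replicate 2, with adjusted p = 0.0247 under voom and 0.0970 without DCIS.COM pLOC-*MALINC1* replicate 1. In MCF10A the estimate of 0.03 did not pass (standard error 0.08, adjusted p = 0.756) and was -0.01 after quantile normalization.

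*TICAM1*, the adaptor of TLR3 and of internalized TLR4, rose with pLOC-*MALINC1* in MCF10A. Levels were 7.41 and 7.93 CPM in MCF10A pLOC-empty, 11.2 CPM in both MCF10A pLOC-*MALINC1* libraries, 6.11 and 5.25 CPM in DCIS.COM pLOC-empty, and 6.61 and 6.65 CPM in DCIS.COM pLOC-*MALINC1*. The MCF10A pLOC-*MALINC1* pair stood above all other libraries. The log2 fold change was 0.54 in MCF10A (standard error 0.107, adjusted p = 0.00112) and 0.22 in DCIS.COM (standard error 0.107, adjusted p = 0.107), and the 2 changes were not shown to differ (difference -0.32, 95% confidence interval -0.65 to 0.02, adjusted p = 0.104). The MCF10A call was lost in 3 fits that left out 1 library, with adjusted p of 0.0128 without MCF10A pLOC-empty replicate 1, and of 0.01005 and 0.0107 without MCF10A pLOC-*MALINC1* replicate 1 and 2. With the empty vector *TICAM1* was lower in DCIS.COM (log2 fold change -0.43, standard error 0.107, adjusted p = 0.00247), a call lost when libraries were scaled without *RN7SL1* and *RN7SL2* (adjusted p = 0.0132), without MCF10A pLOC-empty replicate 2 (adjusted p = 0.0225) and without DCIS.COM pLOC-empty replicate 2 (adjusted p = 0.0245). With pLOC-*MALINC1* the log2 fold change between the lines was -0.75 (standard error 0.107, adjusted p = 3.15e-05).

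*TICAM1* and the receptor that signals through it alone, *TLR3*, each hold 1 of the motifs searched, shown here in capitals. The *TICAM1* promoter (chr19:4831663-4831962, minus strand, GRCh38.p14) has an NF-kB consensus from -120 to -111, and the *TLR3* promoter (chr4:186068906-186069205, plus strand) an IRF-type match on its opposite strand from -3 to 6, counted from the gene start:
TICAM1: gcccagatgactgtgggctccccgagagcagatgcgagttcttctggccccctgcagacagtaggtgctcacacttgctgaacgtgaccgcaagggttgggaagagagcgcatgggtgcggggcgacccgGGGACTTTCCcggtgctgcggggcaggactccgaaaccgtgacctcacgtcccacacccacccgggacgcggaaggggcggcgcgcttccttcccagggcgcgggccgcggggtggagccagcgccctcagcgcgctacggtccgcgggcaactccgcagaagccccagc
TLR3: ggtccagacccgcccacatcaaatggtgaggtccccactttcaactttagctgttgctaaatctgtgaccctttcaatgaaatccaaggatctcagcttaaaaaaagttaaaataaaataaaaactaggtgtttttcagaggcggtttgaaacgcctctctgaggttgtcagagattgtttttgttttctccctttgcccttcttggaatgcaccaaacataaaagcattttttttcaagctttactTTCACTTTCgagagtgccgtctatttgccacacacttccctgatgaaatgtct
Among the other promoters, that of *MYD88* holds an IRF-type match from -61 to -53 and that of *IRAK1* an AP-1 match from -1 to 6. Such matches are letters in a window and were not tested for binding. In GRCh37 *MYD88* spans chromosome 3 from 38180043 to 38184515, *TICAM1* chromosome 19 from 4815944 to 4831724, *IRAK1* chromosome X from 153275957 to 153285353 and *TRAF6* chromosome 11 from 36505319 to 36531822.

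*IRAK1*, the kinase recruited by MYD88, was the most abundant member per length and rose slightly in both lines. It was at 234 and 242 CPM in MCF10A pLOC-empty, 277 and 273 CPM in MCF10A pLOC-*MALINC1*, 251 and 248 CPM in DCIS.COM pLOC-empty, and 291 and 285 CPM in DCIS.COM pLOC-*MALINC1*. In each line both pLOC-*MALINC1* libraries lay above both pLOC-empty libraries. The log2 fold change was 0.21 in MCF10A (standard error 0.0317, adjusted p = 0.000149) and 0.20 in DCIS.COM (standard error 0.0317, adjusted p = 0.000219). The 2 changes differed by -0.01, with a 95% confidence interval of -0.10 to 0.09 (adjusted p = 0.933). Between the lines *IRAK1* did not pass (log2 fold change 0.07, adjusted p = 0.0598 with the empty vector, and 0.06, adjusted p = 0.0797 with pLOC-*MALINC1*). It did pass when libraries were scaled without *RN7SL1* and *RN7SL2* (adjusted p = 0.0002 and 1.1e-05) and after quantile normalization (adjusted p = 0.000149 and 0.000569).

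*TRAF6*, the ubiquitin ligase downstream of IRAK1, differed between the lines alone. Its level was 12.03 and 12.8 CPM in MCF10A pLOC-empty, 13.1 and 11.0 CPM in MCF10A pLOC-*MALINC1*, 7.93 and 7.69 CPM in DCIS.COM pLOC-empty, and 7.84 and 8.25 CPM in DCIS.COM pLOC-*MALINC1*. The vector groups overlapped in both lines, and the lines did not overlap. It was lower in DCIS.COM, with a log2 fold change of -0.66 with the empty vector (standard error 0.101, adjusted p = 5.3e-05) and of -0.58 with pLOC-*MALINC1* (standard error 0.101, adjusted p = 0.000186). The 95% confidence intervals of its changes with pLOC-*MALINC1* were -0.27 to 0.18 in MCF10A and -0.18 to 0.26 in DCIS.COM. A processed copy, *TRAF6P1*, shares 1.03% of its 76 nt stretches.

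**Figure D3:**
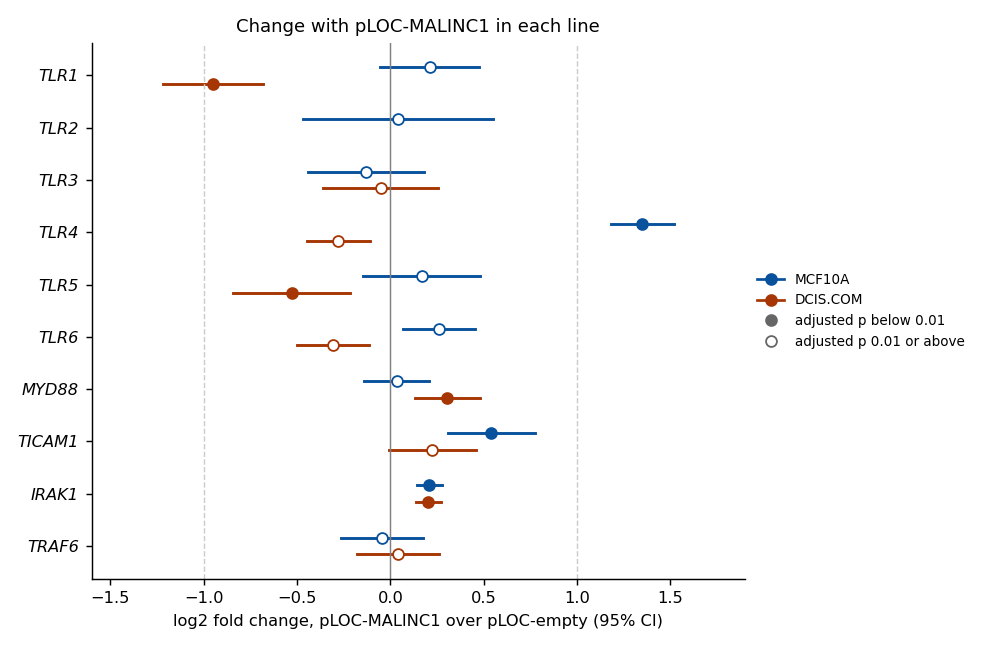
Log2 fold change with pLOC-*MALINC1* over pLOC-empty for each gene in MCF10A and DCIS.COM, with its 95% confidence interval, filled points for an adjusted p below 0.01 and dashed lines at 2-fold. *TLR4* lies above 2-fold in MCF10A (1.35), *TLR1* is lowest in DCIS.COM (-0.95), and *IRAK1* is at 0.21 and 0.20; no point is drawn for *TLR2* in DCIS.COM, where it had 0 reads.

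Counted over the set, 3 of 10 members rose and 0 fell with pLOC-*MALINC1* in MCF10A, where 21.5% of all genes rose and 18.1% fell (2979 and 2506 genes, a balance that turned to 2546 and 2993 when libraries were scaled without *RN7SL1* and *RN7SL2*). Of the 10, 1 was a DEG, against 5.5% of all genes. In DCIS.COM 2 of 10 rose and 2 fell, against 16.4% and 16.7% of all genes, and 0 were DEGs, against 4.53%. The median log2 fold change was 0.19 over the 10 members in MCF10A, where that of all genes was 0, and -0.05 over the 9 with reads in DCIS.COM, where that of all genes was 0.01. These shares lie near the background. The difference between the 2 changes passed for 3 of 10 members, all negative (*TLR4*, *TLR1* and *TLR6*), against 35.9% of all genes in either direction, and passed 2-fold as well for 2 (*TLR4* and *TLR1*), against 9.2%.

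Between the lines, 3 members were higher and 4 lower in DCIS.COM with the empty vector, against 37.9% and 36% of all genes, and 5 were DEGs, against 28.6%. With pLOC-*MALINC1* 3 were higher and 6 lower, against 35.7% and 37.2%, and 5 were DEGs, against 26.6%. *TLR2*, *TLR3*, *TLR5* and *MYD88* were DEGs in both of these comparisons, *TLR4* with the empty vector alone and *TLR1* with pLOC-*MALINC1* alone. The comparisons between lines and within lines use the same libraries and are not independent. Scaling without *RN7SL1* and *RN7SL2* moved the median of all genes to 0.14 (pLOC-empty) and 0.19 (pLOC-*MALINC1*) on the log2 scale, and the smaller differences between the lines are to be read relative to that shift.

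**Figure D4:**
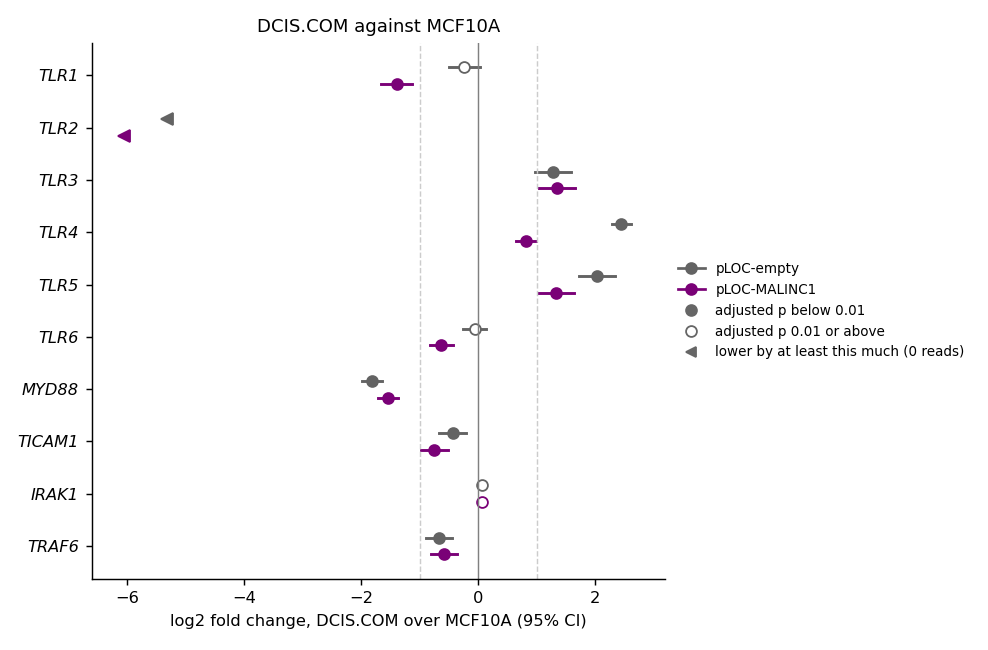
Log2 fold change of DCIS.COM over MCF10A for each gene, with the empty vector and with pLOC-*MALINC1*, with 95% confidence intervals and dashed lines at 2-fold. *TLR3*, *TLR4* and *TLR5* lie to the right (1.27, 2.45 and 2.03 with the empty vector), *MYD88* to the left (-1.81), and the triangles give the smallest fall of *TLR2* that 0 reads allow.

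Per kb of merged exons, the receptors were less abundant than the adaptors *MYD88* and *TICAM1* in MCF10A. CPM per kb of merged GENCODE exons were 55.8 ± 1.39 (SD, n = 2) for *IRAK1*, 9.27 ± 0.0717 for *MYD88* and 2.86 ± 0.135 for *TICAM1* in MCF10A pLOC-empty, followed by *TLR1* (2.53 ± 0.143), *TLR6* (2.07 ± 0.152), *TRAF6* (1.53 ± 0.0663), *TLR2* (0.975 ± 0.0564), *TLR3* (0.5004 ± 0.0144), *TLR4* (0.410 ± 0.00431) and *TLR5* (0.277 ± 0.0115). In DCIS.COM pLOC-empty *IRAK1* again led (58.6 ± 0.475), but *MYD88* (2.63 ± 0.0602), *TLR4* (2.26 ± 0.0725), *TLR1* (2.15 ± 0.0355), *TICAM1* (2.12 ± 0.226) and *TLR6* (1.99 ± 0.0473) lay close together. There, *TICAM1* could not be separated from *TLR4*, *TLR1* or *TLR6*, nor *TLR5* (1.16 ± 0.110) from *TLR3* (1.22 ± 0.0335), beyond the spread. These orders depend on the length used, and the gene models of the authors' counting may be shorter than the merged exons. For *TLR4*, annotated transcripts run from 539 to 12677 nt, against 13277 nt of exons used here. The longest transcript is 2851 nt for *TLR1*, against 4537 nt of exons, and 4235 nt for *TLR5*, against 7733 nt. The place of *TLR1* relative to *TICAM1*, and the order of the lowest receptors, are therefore uncertain.

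The genes with the most similar pattern over the 4 group means were taken from 5441 genes, by Euclidean distance between centred mean log2 CPM. For *TLR4* these were *RASSF6* (distance 0.122), *RAB29* (0.129) and *DUSP2* (0.167), and *RASSF6* went from 10.4 to 29.2 CPM in MCF10A and from 62.9 to 48.2 CPM in DCIS.COM. For *TLR2* they were *IL1RL2*, a receptor of the interleukin-1 family, with the zinc finger genes *ZNF790* and *ZNF799*, all at 0 CPM in both DCIS.COM groups and at 5.14 to 6.62 CPM in MCF10A. For *TLR1* they were *DTX2*, *SNORA49* and *DSE*, for *TLR3* *MAD2L2*, *NR1D2* and *MAGEF1*, for *MYD88* *STRIP2*, *SLC35C1* and *C9orf64*, and for *TLR5* *FAM102B*, a row without symbol and *RGS5*. The likeness rests on 4 means from 8 libraries.

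A further list held other Toll-like receptors, other adaptors and proteins that fold, deliver or assist the receptors. Of its 17 genes 7 were in the table, and the other 10 were not analysed here. Among those 10 were the receptors *TLR7*, *TLR8*, *TLR9* and *TLR10*, and *LY96*, the partner of TLR4 in lipopolysaccharide binding. *UNC93B1*, which carries TLR3 and other receptors to endosomes, was at 86.3 and 88.7 CPM in MCF10A pLOC-empty and 66.9 and 64.4 CPM in MCF10A pLOC-*MALINC1*, and at 27.9 and 28.0 CPM in DCIS.COM pLOC-empty against 14.2 and 12.9 CPM in DCIS.COM pLOC-*MALINC1*. It thus fell in MCF10A (log2 fold change -0.41, adjusted p = 4.44e-05) and further in DCIS.COM (-1.04, adjusted p = 1.62e-08). *CNPY3* and *CNPY4*, chaperones of the receptors, also fell in MCF10A (-0.44 and -0.95), and *CD180*, a receptor relative, rose in both lines (0.52 and 0.81). *CD14*, the lipopolysaccharide co-receptor, rose in DCIS.COM (0.71, adjusted p = 0.00571), as did the chaperone *HSP90B1* (0.13), yet with the empty vector *CD14* was lower in DCIS.COM (0.590 CPM) than in MCF10A (2.81 CPM). In all, 1 of 7 rose and 3 fell in MCF10A (21.5% and 18.1% of all genes), and 3 rose and 1 fell in DCIS.COM (16.4% and 16.7%).

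Enzymes, transcription factors and negative regulators downstream of the adaptors were looked up as further lists. Of 23 kinases and ubiquitin enzymes, 5 rose and 2 fell in MCF10A, against 21.5% and 18.1% of all genes, and 0 rose and 7 fell in DCIS.COM, against 16.4% and 16.7%. DEGs among these numbered 1 in each line, against 5.5% and 4.53% of all genes. *MAP2K6*, a kinase that activates p38, fell from 1.97 to 0.538 CPM in MCF10A (log2 fold change -1.75, adjusted p = 5.03e-06), and *PELI2*, an IRAK-binding ubiquitin ligase, fell from 1.11 to 0.454 CPM in DCIS.COM (log2 fold change -1.18, adjusted p = 0.00862). Of 9 NF-kB and IRF factors, 1 rose (*IRF3*, log2 fold change 0.23) and 0 fell in MCF10A, against 21.5% and 18.1% of all genes. In DCIS.COM 0 rose and 3 fell, against 16.4% and 16.7%. The 3 were *NFKB2* (-0.70), *RELB* (-0.51) and *IRF1* (-0.42). Of the 9 factors, 0 were DEGs in either line. Of 19 negative regulators, 5 rose and 3 fell in MCF10A, against 21.5% and 18.1% of all genes. *DUSP1* (-1.05) was the 1 DEG, against 5.5% of all genes. In DCIS.COM 2 rose and 7 fell, against 16.4% and 16.7%. There 3 were DEGs, against 4.53% of all genes: the deubiquitinase *OTUB2* (-1.84), the RNase *ZC3H12A* (-1.70) and the ubiquitin-binding *TNIP1* (-1.10). With the empty vector *IRAK2*, a relative of *IRAK1*, was at 22.6 CPM in DCIS.COM and 3.11 CPM in MCF10A (log2 fold change 2.83, adjusted p = 3.17e-10).

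Endogenous and matrix ligands of the receptors held DEGs in both lines. Of 13 in the table, 7 rose and 3 fell in MCF10A (21.5% and 18.1% of all genes), and 3 rose and 4 fell in DCIS.COM (16.4% and 16.7%). DEGs numbered 4 in MCF10A, against 5.5% of all genes, and 3 in DCIS.COM, against 4.53%. Fibronectin (*FN1*) fell from 1522 to 368 CPM in MCF10A, while *S100A8* rose from 0.652 to 3.91 CPM and the proteoglycan *BGN* from 0.261 to 1.98 CPM. In DCIS.COM, *SAA1* fell from 15.6 to 0.162 CPM, *SAA2* from 10.6 to 0.132 CPM (near-identical copies whose reads may be shared) and versican (*VCAN*), a proteoglycan known as a TLR2 ligand, from 17.3 to 0.367 CPM.

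Of 24 secreted and adhesion products that NF-kB and AP-1 are known to induce, 14 were in the table. The other 10, *IL6*, *TNF*, *CCL2* and *IFNB1* among them, were not analysed here. Of the 14, 7 rose and 1 fell (*LCN2*) in MCF10A, against 21.5% and 18.1% of all genes. In DCIS.COM 1 rose (*PTGS2*) and 9 fell, against 16.4% and 16.7%. *CXCL8*, a neutrophil attractant, was at 2.66 and 2.61 CPM in MCF10A pLOC-empty and 9.33 and 9.56 CPM in MCF10A pLOC-*MALINC1*, and at 132 and 109 CPM against 134 and 124 CPM in DCIS.COM. The libraries of the 2 vectors lay apart in MCF10A and overlapped in DCIS.COM. *LIF*, an IL-6 family cytokine, rose in MCF10A (log2 fold change 1.79, adjusted p = 6.19e-09) and fell in DCIS.COM (-0.89, adjusted p = 3.1e-06). *LCN2*, which binds bacterial siderophores, fell from 288 to 31.3 CPM in DCIS.COM, and *CCL20* from 4.29 to 0.483 CPM. The difference between the lines passed for 12 of the 14, all negative and all over 2-fold, against 35.9% of all genes in either direction and 9.2% over 2-fold. The list's median difference was -1.77 on the log2 scale, where that of all genes was -0.01. With the empty vector 13 of the 14 were higher and 1 (*PTGS2*) lower in DCIS.COM, against 37.9% and 36% of all genes. This list was assembled with earlier results of these data known, so its count is a description.

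**Figure D5:**
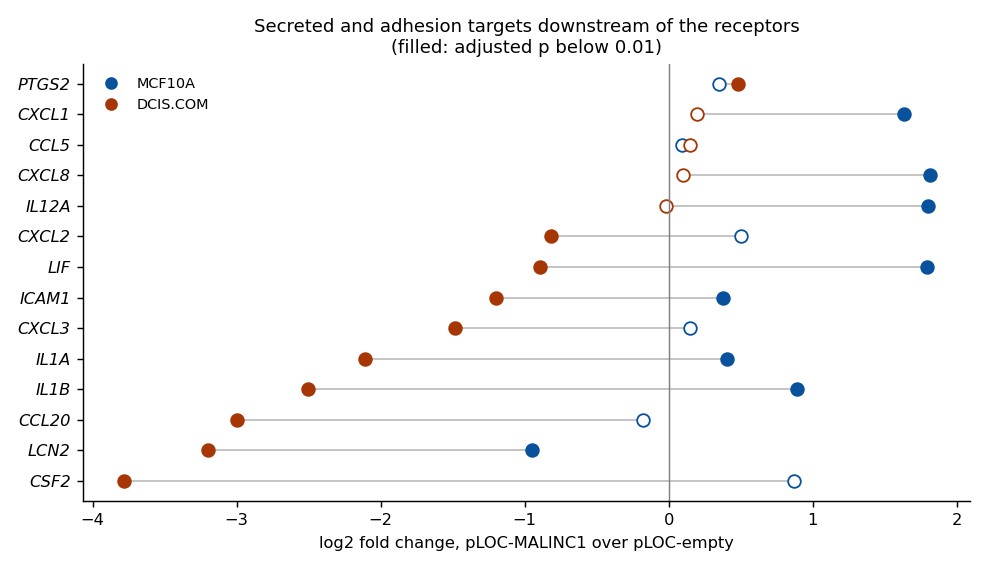
Log2 fold change with pLOC-*MALINC1* of the 14 secreted and adhesion products in MCF10A and DCIS.COM, joined by a line for each gene, with filled points where the adjusted p was below 0.01. The DCIS.COM point lies left of the MCF10A point for all genes except *PTGS2* and *CCL5*.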

How the data were processed

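According to the study's methods, RNA of 8 libraries was sequenced as 76 nt paired-end reads, for which the authors used Rsubread (alignment to hg19) and featureCounts (reads per UCSC gene). The authors deposited normalized log2 CPM from edgeR. The strand setting, the filter on low values and tool versions are not given in the sources used here. Removing a prior count of 2 gave whole reads for all values within 0.05 of a read. In R 4.3.3, limma 3.58.1 (lmFit, eBayes with a trend) was run on the deposited values with 1 mean per group, over all 13842 genes (0.5 CPM or more in at least 2 libraries). Degrees of freedom were 4 residual and 7.98 prior. Intervals use limma's standard errors. The steps were tested on simulated data. Other tools were Python 3.11.15, pandas 2.3.3, numpy 2.4.6, scipy 1.17.1 and matplotlib 3.10.9.

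Members and lists were chosen with earlier results of these data known. All 10 members are named. From each other list, up to 3 genes per comparison with the largest change among DEGs were eligible if one group reached 1 CPM, and genes behind counts of 5 or fewer were named after their values were seen, as were the neighbouring genes and individual values of *CXCL8* by library. Nearest patterns were taken among genes whose group means ranged over at least 1 on the log2 scale. Alternatives changed the pseudocount, filter, scaling, model, thresholds and libraries. Gene positions are those of GENCODE on GRCh37, and 346 rows of the table have no symbol.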

Additional observations from a re-analysis of the deposited data

Results flagged for a closer look

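For 3 genes the change with pLOC-*MALINC1* differed between the lines at an adjusted p below 0.01, by the limma contrast of DCIS.COM minus MCF10A, with 2 libraries in each group. The difference was -1.63 on the log2 scale for *TLR4* (95% confidence interval -1.87 to -1.39, adjusted p = 1.67e-07), -1.16 for *TLR1* (95% confidence interval -1.54 to -0.78, adjusted p = 0.000143) and -0.57 for *TLR6* (95% confidence interval -0.84 to -0.29, adjusted p = 0.00254). All 3 estimates were above 0 in MCF10A and below 0 in DCIS.COM. The rise of *TLR4* in MCF10A and the fall of *TLR1* in DCIS.COM passed within their line, and *TLR6* passed in neither, though its fall in DCIS.COM passed with the line fitted alone (adjusted p = 0.00751). A difference of this kind was called for 35.9% of all genes.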

How the results depend on the processing

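Of 499 member fold changes recomputed under alternatives other than leaving out a library, 467 kept direction and call, 11 lost the call, 16 gained it and 5 changed sign. The filter removed no gene, so the fit without it equalled the main fit, and its 48 values could not differ. The alternative threshold of 0.05 reused the main estimates, so no sign could change there. With 1 library left out, 346 of 384 kept both, 24 lost the call and 14 changed sign. Leaving out a library changes no estimate between 2 groups that do not hold it, so many of the 384 estimates could not move. For those, only the spread and the adjusted p could change. Sign changes concerned estimates near 0. *MYD88* in MCF10A was -0.0071 after quantile normalization and -0.0070 when scaled without *RN7SL1* and *RN7SL2*, *TLR6* between the lines with the empty vector was 0.047 under that scaling, and the difference for *IRAK1* was 0.069 under it and 0.0056 with median-centred libraries. Without the RN7SL genes the share of calls that were higher was 46% in MCF10A (54.3% as reported), 57.8% in DCIS.COM (49.5%), 57.8% (51.2%) and 61.8% (49%) between the lines with pLOC-empty and pLOC-*MALINC1*, and 55.4% (43.5%) for the difference. With 1 library left out, estimates in MCF10A ranged from -0.045 to 0.11 for *MYD88*, -0.019 to 0.10 for *TLR2*, -0.29 to 0.025 for *TLR3* and -0.17 to 0.077 for *TRAF6*. *TLR3* in DCIS.COM ranged from -0.21 to 0.10, *TLR6* between the lines with the empty vector from -0.13 to 0.016, and the differences from -0.031 to 0.020 for *IRAK1*, -0.079 to 0.24 for *TLR3* and -0.035 to 0.21 for *TRAF6*.

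Members changed in DCIS.COM numbered 4, but 1 without the trend and 2 to 3 with 1 library left out. With 1 library left out, DEGs in DCIS.COM numbered 0 to 1 (1 without pLOC-*MALINC1* replicate 2) and those for the difference 1 to 2 (1 without DCIS.COM pLOC-*MALINC1* replicate 1). At 1.5-fold, DEGs numbered 1 in DCIS.COM and 8 between the lines with pLOC-*MALINC1*. Without the trend the call for the difference of *TLR6* was lost (adjusted p = 0.0126), as was that of *IRAK1* in DCIS.COM (0.0114). The cause was not tested. With 1 CPM added before the logarithm, 404 genes of the whole table were DEGs in MCF10A (761 as reported) and 354 in DCIS.COM (627). Fitted with a replicate block, *TLR5* in DCIS.COM lost its call (-0.53, adjusted p = 0.0125) and no other member's call changed. Deviations of same-numbered libraries correlated at -0.0885 to 0.0514, so no marked shared deviation was seen. Whether same-numbered libraries were prepared together is not given in the labels. With 2 libraries in each group and 47 to 91 reads of *TLR5* in MCF10A, small changes could not be shown.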

Other observations

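Genes next to the other receptors were at the following levels. *TMEM131L*, 47.4 kb before *TLR2*, was read in both lines (22.8 CPM in MCF10A and 29.5 CPM in DCIS.COM, pLOC-empty), as was *TRIM2* (67.3 and 285 CPM). *LRAT*, which esterifies retinol and lies 921 kb beyond *TLR2*, rose with pLOC-*MALINC1* in both lines, from 52.2 to 142 CPM in MCF10A (log2 fold change 1.45, adjusted p = 3.54e-09) and from 65.5 to 138 CPM in DCIS.COM (log2 fold change 1.07, adjusted p = 5.33e-08). *ASTN2*, 289 kb before *TLR4*, and *PAPPA*, 1300 kb before it, had estimates opposite in sign to those of *TLR4* in both lines. The fall of *TLR4* in DCIS.COM did not itself pass, and *TRIM32*, on the same side, passed in neither line. On the other side, at 2660 kb or more, *CDK5RAP2* (-0.27) and *MEGF9* (-0.31) fell in MCF10A. Neither passed in DCIS.COM, and *FBXW2* passed in neither line. *ASTN2* went from 13.0 to 7.51 CPM in MCF10A (log2 fold change -0.78, adjusted p = 0.000309) and from 17.2 to 25.4 CPM in DCIS.COM (log2 fold change 0.55, adjusted p = 0.00435). *PAPPA*, a protease that frees insulin-like growth factors, fell by 0.77 on the log2 scale in MCF10A (adjusted p = 0.000185) and rose by 0.84 in DCIS.COM (adjusted p = 0.000109). *CYP4V2*, 103 kb beyond *TLR3*, was higher in DCIS.COM with the empty vector, as *TLR3* was (2.60 CPM in MCF10A and 11.3 CPM in DCIS.COM, log2 fold change 2.10, adjusted p = 2.83e-09). Of the other genes looked up around *TLR3*, *PDLIM3*, *SORBS2* and *FAT1* were also higher. *UFSP2* did not pass (log2 fold change -0.12), and *FRG1* was lower (-0.17). Around *TLR5*, *DISP1* and *CAPN8* were higher, *AIDA*, *BROX* and *CAPN2* were lower, and *SUSD4* did not pass. In this comparison 37.9% of all genes were higher and 36% lower. With pLOC-*MALINC1*, 21.5% of all genes rose and 18.1% fell in MCF10A, and 16.4% rose and 16.7% fell in DCIS.COM.

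Sensors outside the Toll-like family were also in the table. Of 12 cytosolic nucleic acid and NOD sensors, 5 rose and 1 fell with pLOC-*MALINC1* in MCF10A (21.5% and 18.1% of all genes), and 1 rose and 4 fell in DCIS.COM (16.4% and 16.7%). With the empty vector, *STING1*, which signals for cytosolic DNA, was at 16.2 CPM in DCIS.COM and 4.09 CPM in MCF10A (log2 fold change 1.97, adjusted p = 5.7e-10), *DHX58* at 3.26 and 1.38 CPM, and *NOD2*, a peptidoglycan sensor, at 0.354 and 2.86 CPM (log2 fold change -2.79, adjusted p = 1.02e-07).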
